A study of Homo sapiens with 24 samples.

Results

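Serine synthesis and folate one-carbon metabolism were followed through 10 enzyme genes of the 39786 genes in the deposited count table. PHGDH, PSAT1 and PSPH make serine, SHMT2, MTHFD2, MTHFD2L, MTHFD1L and ALDH1L2 form the mitochondrial folate arm, and SHMT1 and MTHFD1 belong to the cytosolic arm. They were picked by gene symbol and not by a measured value, though with earlier results of these data known. Each symbol had 1 row, and all 10 passed the filter on low counts in both lines. Polyadenylated RNA was sequenced from 2 carcinoma lines, OVCAR8 of the ovary and 5637 of the urinary bladder, each as cells made resistant to neratinib (NR) and as their parental cells. Neratinib is an irreversible inhibitor of the kinases of EGFR, ERBB2 and ERBB4. Each line gave 4 groups of 3 dishes: NR cells on neratinib, NR control cells without it, parental cells on neratinib and parental control cells. OVCAR8 received 1 µM and 5637 received 600 nM for 24 h, so that line and dose cannot be told apart. NR cells had spent 1 week off the drug before they were seeded. The labels give 1 resistant derivative per line and not whether it was a clone, so that resistance and that derivative cannot be told apart. The dishes of a group were one triplicate seeding, so p-values measure the spread between dishes, which may be technical.

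The 24 libraries held 23.8 M to 48.5 M counts. Of 9 urothelial and basal markers, KRT5 and TP63 set the lines apart most, with means of 0.136 and 0.00781 TPM (a length-scaled level) in OVCAR8 and 1760 and 62.7 TPM in 5637. KRT7 was high in both lines (824 TPM in OVCAR8 and 1750 TPM in 5637), and the uroplakins UPK1A (0.958 TPM in OVCAR8 and 0.0729 TPM in 5637) and UPK3A (0.0422 and 0.489 TPM) were below 1 TPM in both. Of 7 ovarian markers, PAX8 (45.5 TPM in OVCAR8 and 10.5 TPM in 5637) and MSLN (332 and 2.49 TPM) were higher in OVCAR8. WT1 (1.72 TPM in OVCAR8 and 10.2 TPM in 5637), MUC16 (0.00386 and 15.6 TPM) and ESR1 (0.032 and 1.45 TPM) went the other way, higher in 5637, and SOX17 and EMX2 were at 0.0298 TPM or less in both lines. Of the 9 markers of blood, endothelium and fibroblasts in the table, COL1A1 was the main one (282 TPM in OVCAR8 and 38.8 TPM in 5637), and PTPRC, CD3E, COL3A1 and DCN were at 0.00959 TPM or less in both lines. One library stood apart: in OVCAR8 parental control replicate 2, genes longer than 8000 bases took 14.1% of all counts, where the remaining 11 libraries of that line gave 20.4% to 21.2%. The dispersion estimate of the line, as a coefficient of variation, was 13% when it was included and 4.37% when it was left out, and values of the 10 genes without it are given where that changed a call. In bulk RNA, less transcript per cell and fewer cells that express it cannot be told apart.

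Serine is built from the glycolytic intermediate phosphoglycerate and passes a carbon unit to folate when it is split into glycine. Mitochondria oxidise that unit and export it as formate, and the cytosol puts formate back on folate to make purines, thymidylate and methionine. Many tumour cells run the cycle in this direction, and the transcription factor ATF4, which accumulates when amino acids run short, is known to switch on several of these genes.

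Promoters are shown for the strongest risers on neratinib with a start in the set of RefSeq promoters used here (PSAT1, PHGDH and MTHFD2). MTHFD1L, which carries an ATF4-type element, and MTHFD1, which fell in parental cells, are shown too. That set (GRCh38.p14) held a start for 7 of the 10 genes. It had no entry for PSPH, SHMT2 and ALDH1L2. Each line gives the 250 bases before the start, 5′ to 3′ on the gene's strand, with matches in capitals. Both strands were searched for TGATGNAA (the element bound by ATF4 with a C/EBP partner), CACGTG (E-box), TGACNNNGC (the core of the antioxidant response element) and CCAAT, and no match overlapped another.
PSAT1: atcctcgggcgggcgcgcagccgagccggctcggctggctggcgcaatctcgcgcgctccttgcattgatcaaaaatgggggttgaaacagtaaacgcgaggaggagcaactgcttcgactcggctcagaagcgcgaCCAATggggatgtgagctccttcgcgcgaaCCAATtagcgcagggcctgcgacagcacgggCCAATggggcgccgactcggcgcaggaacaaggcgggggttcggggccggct
PHGDH: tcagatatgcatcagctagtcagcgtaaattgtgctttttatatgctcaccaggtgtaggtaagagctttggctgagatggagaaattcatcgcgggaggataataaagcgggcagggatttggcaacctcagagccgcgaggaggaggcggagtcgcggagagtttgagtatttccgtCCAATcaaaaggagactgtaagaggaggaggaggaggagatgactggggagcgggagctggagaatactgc
MTHFD2: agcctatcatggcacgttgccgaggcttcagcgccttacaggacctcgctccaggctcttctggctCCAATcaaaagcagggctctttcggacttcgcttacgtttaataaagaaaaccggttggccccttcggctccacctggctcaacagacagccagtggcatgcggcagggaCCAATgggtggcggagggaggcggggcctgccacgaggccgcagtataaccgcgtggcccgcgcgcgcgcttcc
MTHFD1L: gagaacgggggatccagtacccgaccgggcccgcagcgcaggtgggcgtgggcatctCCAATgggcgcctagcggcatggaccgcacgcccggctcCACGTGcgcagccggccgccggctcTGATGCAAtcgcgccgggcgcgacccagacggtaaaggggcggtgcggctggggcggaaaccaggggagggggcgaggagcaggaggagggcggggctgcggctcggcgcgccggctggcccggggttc
MTHFD1: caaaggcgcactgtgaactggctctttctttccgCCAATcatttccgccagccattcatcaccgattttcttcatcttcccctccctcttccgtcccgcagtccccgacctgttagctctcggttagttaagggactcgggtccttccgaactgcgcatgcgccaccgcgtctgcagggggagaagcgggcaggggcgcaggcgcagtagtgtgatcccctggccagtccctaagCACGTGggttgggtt
The windows are chr9:78296875-78297124, plus strand for PSAT1, chr1:119711684-119711933, plus strand for PHGDH, chr2:74198365-74198614, plus strand for MTHFD2, chr6:150866236-150866485, plus strand for the first of 4 MTHFD1L starts, and chr14:64388103-64388352, plus strand for MTHFD1. TGATGNAA stood 129 bases before this MTHFD1L start and in the overlapping window of start 3, but not in those of starts 2 and 4. No window of the other 6 genes held it, and 3.14% of the 35116 RefSeq promoter windows did. CACGTG was present in MTHFD1L and MTHFD1 (6.34% of all windows), and TGACNNNGC in none of the 7 genes (10.9% of all windows). CCAAT was found in every printed window, 3 times in PSAT1, and 32% of all windows held it. Among the windows not printed, those of SHMT1 and of MTHFD1L starts 2 and 3 held it. Those of MTHFD2L and of MTHFD1L start 4 did not. A match is only a run of letters in this window.

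Neratinib raised the 3 serine synthesis genes in NR and parental cells of both lines, though the PSPH call in NR OVCAR8 was lost without any 1 NR library. Of the 5 mitochondrial folate genes, 2 rose in NR OVCAR8, 4 in parental OVCAR8 (1 fell), 4 in NR 5637 and 3 in parental 5637. Both cytosolic enzymes were called lower in parental cells, though the SHMT1 call in 5637 was lost in 6 of 21 alternatives. In NR OVCAR8 cells 5 of the 10 genes rose and 0 fell (edgeR quasi-likelihood test, Benjamini-Hochberg adjusted p under 0.05 over all 18072 genes tested), where 0.642% of genes were called higher and 0.747% lower (1.39% in all). Without the library that stood apart, 7 rose and 1 fell where 9.39% of genes higher and 11.9% lower (21.3% in all) were called. In parental OVCAR8 cells 7 rose and 3 fell, with and without that library, where 16.2% of genes were called higher and 16.3% lower (32.5% in all), and without it 24.3% of genes higher and 24.9% lower (49.2% in all). The median log2 fold change over the 10 genes was 0.31 in NR and 1.09 in parental OVCAR8 cells, where all genes had medians of 0.00 and 0.01. In NR 5637 cells, with 18307 genes tested, 7 rose and 1 fell, where 18.4% of genes were called higher and 21.1% lower (39.5% in all), and in parental 5637 cells 6 rose and 2 fell, where 23.9% of genes were called higher and 23.5% lower (47.3% in all). The medians were 0.78 in NR and 0.91 in parental 5637 cells, where all genes had 0.00 and 0.02.
Summed per length, the 10 transcripts came to 1229 to 1283 TPM in NR OVCAR8 dishes on neratinib, against 817 to 842 TPM in NR controls. In parental OVCAR8 the sums were 2296 to 2325 TPM on neratinib, against 746 to 852 TPM in controls. NR 5637 dishes held 943 to 1124 TPM on neratinib, against 449 to 473 TPM in NR controls, and parental 5637 dishes 1332 to 1366 TPM, against 533 to 567 TPM. Treated sums exceeded control sums in all 4 pairs, and treated parental dishes held the most transcript in each line.

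**Figure D1:**
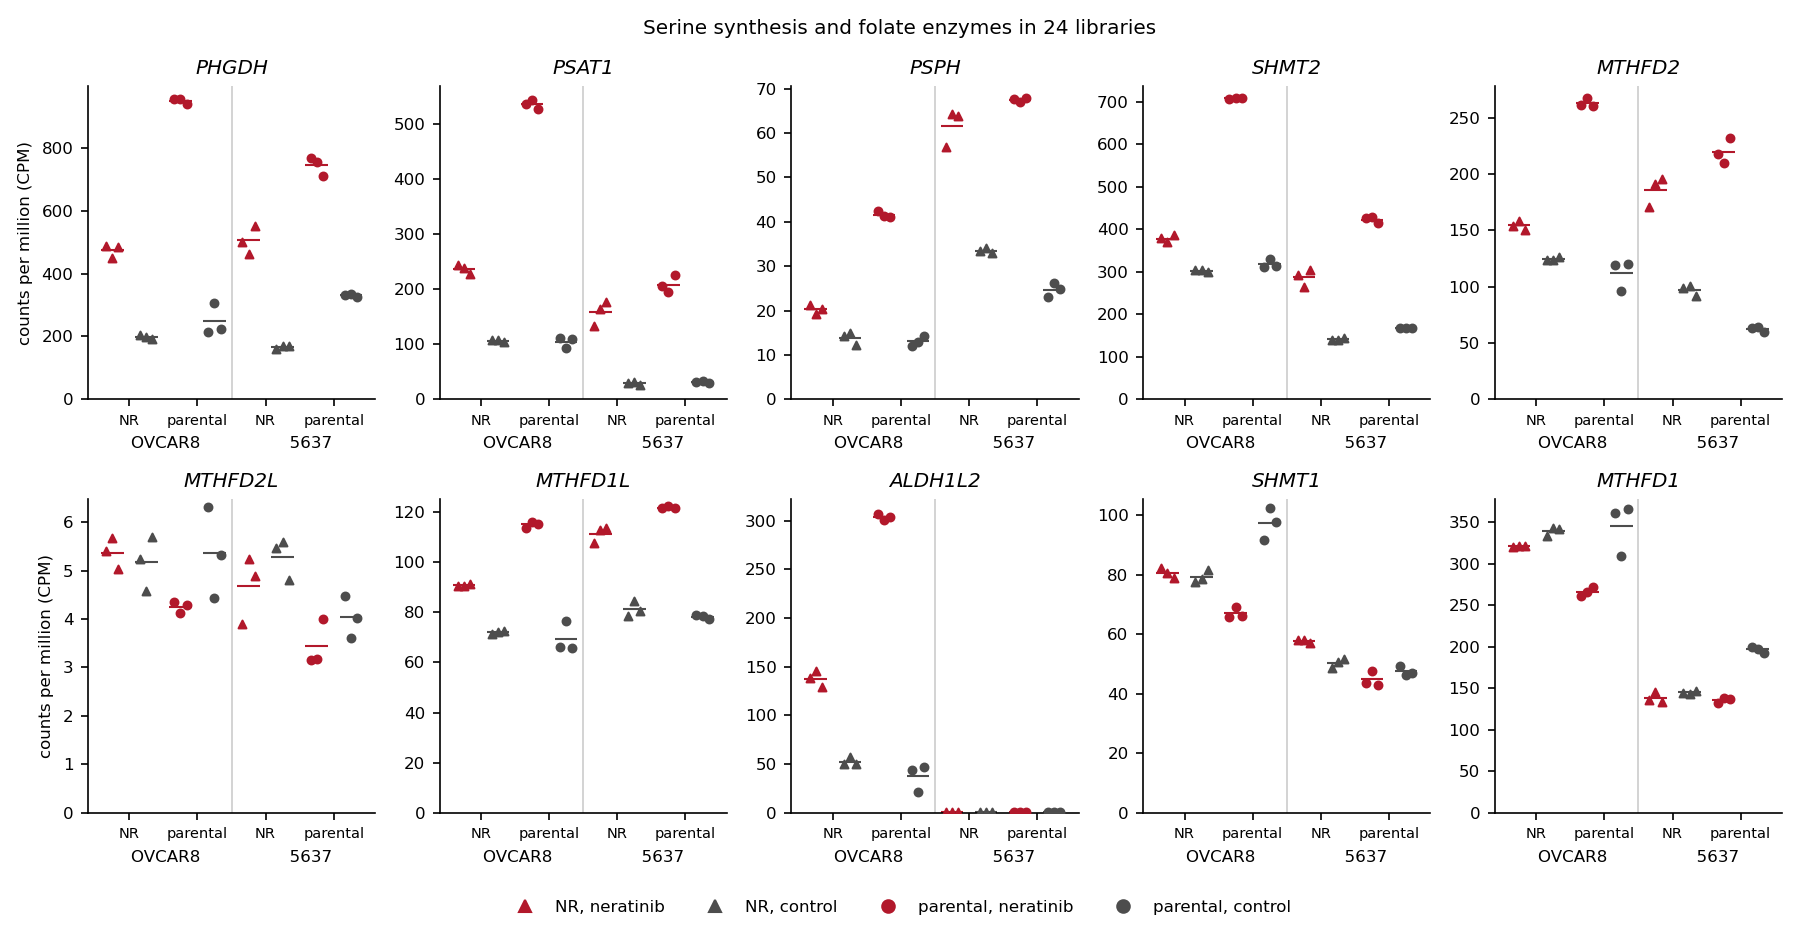
Counts scaled to the library total (CPM, vertical axes from 0) of the 10 enzymes in all 24 libraries, by line, with NR cells (triangles) left of parental cells (circles) and neratinib (red) left of control (grey); short bars are group means. PSAT1 in parental OVCAR8 cells lies at 537, 543 and 526 CPM on neratinib, far above 112, 93.3 and 109 CPM in controls, while SHMT1 and MTHFD1 of the same cells lie lower on neratinib than in controls.

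PHGDH (ENSG00000092621.7, hg19 chr1:120202421-120286838) encodes the first enzyme of serine synthesis, which oxidises the glycolytic precursor. Values are counts scaled to the library total (CPM), and fold changes are log2, neratinib over control. PHGDH had 486, 449.9 and 485 CPM in NR OVCAR8 dishes on neratinib, against 206, 198 and 192 CPM in NR controls. Parental OVCAR8 dishes had 954, 957 and 939.9 CPM on neratinib, against 214, 307 and 224 CPM in controls. All treated dishes lay above all controls, the treated parental dishes were the highest of the line, and the high control value is that of the library that stood apart. The log2 fold change was 1.24 ± 0.14 (SE, edgeR adjusted p = 0.0021) in NR cells and 1.82 ± 0.15 (SE, edgeR adjusted p = 5.2e-06) in parental cells. The NR effect minus the parental effect was -0.59 ± 0.20 (SE, edgeR adjusted p = 0.094), which did not pass, and without parental control replicate 2 it was -0.84 (edgeR adjusted p = 5.1e-10), which did. It also passed with scaling by the library total (adjusted p = 0.023), without the filter on low counts (0.027) or with the spread estimated from all 24 libraries (0.014).
In 5637, PHGDH had 502, 464 and 553 CPM in NR dishes on neratinib, against 160.1, 171 and 169 CPM in NR controls. Parental 5637 dishes had 768, 756 and 710.0 CPM on neratinib, against 332, 335 and 326 CPM in controls. Groups did not overlap, and NR cells were below parental cells with the drug and without it. The log2 fold change was 1.48 ± 0.06 (SE, edgeR adjusted p = 7e-11) in NR cells and 1.06 ± 0.06 (SE, edgeR adjusted p = 1.8e-09) in parental cells. The effect was larger in NR 5637 cells, by 0.41 ± 0.09 (SE, edgeR adjusted p = 0.004). With the spread estimated from all 24 libraries that difference was 0.40 and did not pass (edgeR adjusted p = 0.14).

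PSAT1 (ENSG00000135069.9, hg19 chr9:80912059-80945009) encodes the aminotransferase that follows PHGDH. It had 244, 239 and 227 CPM in NR OVCAR8 dishes on neratinib, against 108, 107 and 105 CPM in NR controls. In parental OVCAR8 cells there were 537, 543 and 526 CPM on neratinib, against 112, 93.3 and 109 CPM in controls. NR and parental controls overlapped, whereas treated parental dishes lay far above the treated NR dishes. PSAT1 rose by 1.13 ± 0.06 (SE, edgeR adjusted p = 8e-06) in NR cells and by 2.26 ± 0.06 (SE, edgeR adjusted p = 3.6e-09) in parental cells, and the difference was -1.13 ± 0.09 (SE, edgeR adjusted p = 5.7e-05).
The 5637 cells held less PSAT1 than OVCAR8 cells without the drug. NR 5637 dishes had 134, 164 and 176 CPM on neratinib, against 29.1, 30.8 and 26.3 CPM in NR controls. In parental 5637 cells there were 205, 194 and 225 CPM on neratinib, against 30.8, 32.6 and 30.0 CPM in controls. Treated dishes were far above controls in both kinds of cells, and controls of NR and parental cells overlapped. The log2 fold change was 2.33 ± 0.09 (SE, edgeR adjusted p = 2e-11) in NR cells and 2.64 ± 0.09 (SE, edgeR adjusted p = 4.1e-12) in parental cells, where PSAT1 had the largest change of the 10 genes. Their difference, -0.31 ± 0.12 (SE, edgeR adjusted p = 0.1), did not pass.

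PSPH (ENSG00000146733.9, hg19 chr7:56078744-56119297) encodes the phosphatase that releases serine. A related pseudogene, PSPHP1, held a mean of 101 counts beside 1379 for PSPH, and reads could be split between them. NR OVCAR8 dishes had 21.3, 19.3 and 20.3 CPM on neratinib, against 14.2, 15.1 and 12.2 CPM in NR controls. The parental OVCAR8 dishes gave 42.3, 41.4 and 41.0 CPM on neratinib, against 11.9, 13.0 and 14.2 CPM in controls. Treated and control dishes were apart in both, and treated parental dishes were the highest of the line. PSPH rose by 0.54 ± 0.10 (SE, edgeR adjusted p = 0.022) in NR cells, a call that was lost without any 1 of the 6 NR libraries (adjusted p of 0.053 to 0.12) and without parental neratinib replicate 1 or 3 (0.051 and 0.05), or with the replicate number as a block (0.063), while it was kept, at 0.54 (edgeR adjusted p = 2.8e-05), without parental control replicate 2. It rose by 1.57 ± 0.10 (SE, edgeR adjusted p = 1.1e-06) in parental cells, and the difference was -1.03 ± 0.14 (SE, edgeR adjusted p = 0.0017).
In NR 5637 cells there were 56.8, 64.3 and 63.9 CPM on neratinib, against 33.4, 34.0 and 32.9 CPM in NR controls. The parental 5637 dishes gave 67.7, 66.9 and 67.8 CPM on neratinib, against 22.9, 26.2 and 24.9 CPM in controls. NR controls were above parental controls, and treated NR dishes were below treated parental dishes. The rise was 0.76 ± 0.06 (SE, edgeR adjusted p = 1.2e-07) in NR cells and 1.34 ± 0.06 (SE, edgeR adjusted p = 1.8e-10) in parental cells, with a difference of -0.58 ± 0.09 (SE, edgeR adjusted p = 0.00028).

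SHMT2 (ENSG00000182199.6, hg19 chr12:57623110-57628718) encodes the mitochondrial hydroxymethyltransferase that splits serine into glycine and a folate-bound carbon. In NR OVCAR8 cells there were 378, 369 and 386 CPM on neratinib, against 304, 303 and 300.1 CPM in NR controls. Levels in parental OVCAR8 dishes were 706, 708 and 708 CPM on neratinib, against 311, 331 and 313 CPM in controls. The dishes of each group lay close together and no treated group overlapped its controls. The change was 0.30 ± 0.07 (SE, edgeR adjusted p = 0.07) in NR cells, which did not pass, and 0.30 (edgeR adjusted p = 8.7e-07) without parental control replicate 2, which did, as it did with DESeq2 (0.0057), the library total (0.02) or all 24 libraries (0.013). SHMT2 rose by 1.05 ± 0.07 (SE, edgeR adjusted p = 2e-06) in parental cells, and the difference was -0.75 ± 0.10 (SE, edgeR adjusted p = 0.0019).
NR 5637 dishes had 293, 265 and 304 CPM on neratinib, against 140.4, 139 and 144 CPM in NR controls. Parental 5637 dishes had 426, 429 and 414 CPM on neratinib, against 167, 167 and 167 CPM in controls. NR dishes were below parental dishes with the drug and without it. SHMT2 rose by 0.90 ± 0.06 (SE, edgeR adjusted p = 4.5e-09) in NR cells and by 1.23 ± 0.06 (SE, edgeR adjusted p = 1.2e-10) in parental cells, with a difference of -0.34 ± 0.08 (SE, edgeR adjusted p = 0.008). SHMT2 overlaps NDUFA4L2, which held a mean of 115 counts beside 13770.

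MTHFD2 (ENSG00000065911.7, hg19 chr2:74425689-74444692) encodes the mitochondrial dehydrogenase and cyclohydrolase that oxidises this carbon unit, an enzyme of embryos and tumours that most adult tissues hold at low levels. NR OVCAR8 dishes had 154, 158 and 151 CPM on neratinib, against 124, 123 and 126 CPM in NR controls. Parental OVCAR8 dishes had 261, 268 and 260.1 CPM on neratinib, against 119, 96.5 and 120.0 CPM in controls. Treated dishes exceeded controls in both, and the lowest control was the library that stood apart. MTHFD2 rose by 0.29 ± 0.06 (SE, edgeR adjusted p = 0.048) in NR cells. That call was lost without any 1 of the other libraries except parental control replicate 3 (adjusted p of 0.05 to 0.21), with the library total (0.09), without the filter (0.23) or with the replicate block (0.11), and kept, at 0.28 (edgeR adjusted p = 4.2e-06), without parental control replicate 2. It rose by 1.14 ± 0.07 (SE, edgeR adjusted p = 4.8e-07) in parental cells, with a difference of -0.85 ± 0.09 (SE, edgeR adjusted p = 0.00043).
In NR 5637 cells there were 170.5, 191 and 195 CPM on neratinib, against 99.1, 101 and 91.7 CPM in NR controls. In parental 5637 cells there were 218, 209.5 and 232 CPM on neratinib, against 63.1, 64.5 and 59.7 CPM in controls. Without the drug NR dishes were above parental dishes, and on the drug they were below them. The rise was 0.81 ± 0.06 (SE, edgeR adjusted p = 3.5e-08) in NR cells and 1.71 ± 0.06 (SE, edgeR adjusted p = 8.2e-12) in parental cells, and the difference of -0.90 ± 0.08 (SE, edgeR adjusted p = 2.9e-06) was the largest among the 10 genes in 5637.

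MTHFD2L (ENSG00000163738.14, hg19 chr4:74979891-75168816) encodes the isozyme of MTHFD2 found in adult tissues. It was low in all groups, with group means of 3.44 to 5.36 CPM and 109 to 263 counts per library. In parental OVCAR8 cells there were 4.35, 4.12 and 4.28 CPM on neratinib, against 6.31, 4.44 and 5.31 CPM in controls. The change of -0.43 ± 0.12 (SE, edgeR adjusted p = 0.017) passed with all libraries, and was lost without parental control replicate 1 (adjusted p = 0.063) or parental neratinib replicate 2 (0.064), with the library total (0.074), without the filter (0.057) and with the compared groups alone (0.079). In NR OVCAR8 and in both kinds of 5637 cells treated and control dishes overlapped. The log2 fold change there was 0.03 ± 0.12 (SE, edgeR adjusted p = 0.96) in NR OVCAR8, -0.30 ± 0.13 (SE, edgeR adjusted p = 0.086) in NR 5637 and -0.33 ± 0.14 (SE, edgeR adjusted p = 0.062) in parental 5637. The 5637 value passed without NR neratinib replicate 2 in NR cells (-0.39, adjusted p = 0.049), and without parental control replicate 2 (-0.41, 0.045), parental neratinib replicate 3 (-0.46, 0.025) or NR neratinib replicate 1 (-0.34, 0.041) in parental cells.
MTHFD1L (ENSG00000120254.11, hg19 chr6:151186685-151423023) encodes the mitochondrial synthetase that releases formate. In NR OVCAR8 cells there were 90.4, 90.7 and 91.4 CPM on neratinib, against 71.3, 72.1 and 72.6 CPM in NR controls. The parental OVCAR8 dishes gave 114, 116 and 116 CPM on neratinib, against 66.4, 76.5 and 65.7 CPM in controls. No treated dish fell within its control range. The change was 0.32 ± 0.09 (SE, edgeR adjusted p = 0.12) in NR cells, or 0.31 (edgeR adjusted p = 3.4e-06) without parental control replicate 2, and the rise in parental cells was 0.62 ± 0.09 (SE, edgeR adjusted p = 0.00034). The difference was -0.31 ± 0.13 (SE, edgeR adjusted p = 0.17), or -0.44 (edgeR adjusted p = 2.2e-06) without that library. The change in NR cells and this difference also passed with the library total (0.039 and 0.03) or all 24 libraries (0.02 and 0.048).
In 5637, MTHFD1L had 108, 113 and 114 CPM in NR dishes on neratinib, against 78.6, 84.5 and 80.5 CPM in NR controls. The parental 5637 dishes gave 122, 122 and 122 CPM on neratinib, against 78.9, 78.8 and 77.4 CPM in controls. Controls of NR and parental cells overlapped and treated dishes did not. MTHFD1L rose by 0.33 ± 0.05 (SE, edgeR adjusted p = 7.1e-05) in NR cells and by 0.53 ± 0.05 (SE, edgeR adjusted p = 3.8e-07) in parental cells, and the difference of -0.20 ± 0.07 (SE, edgeR adjusted p = 0.07) did not pass, though it did with DESeq2 (0.024).

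ALDH1L2 (ENSG00000136010.9, hg19 chr12:105413568-105478355) encodes the mitochondrial enzyme that oxidises formyl-folate to CO2 and makes NADPH. It divided the lines, with 713 to 14611 counts per library in OVCAR8 and 7 to 31 in 5637. NR OVCAR8 dishes had 138, 145 and 129 CPM on neratinib, against 49.7, 56.9 and 49.8 CPM in NR controls. Levels in parental OVCAR8 dishes were 307, 301 and 304 CPM on neratinib, against 43.8, 20.7 and 47.3 CPM in controls. Treated dishes were far above controls, most of all in parental cells, and the low control was the library with few counts on long genes (the ALDH1L2 model is 8501 bases long). ALDH1L2 rose by 1.38 ± 0.20 (SE, edgeR adjusted p = 0.0072) in NR cells and by 2.95 ± 0.21 (SE, edgeR adjusted p = 2e-06) in parental cells, the largest change of the 10 genes in this line, or by 2.69 (edgeR adjusted p = 4.2e-19) without that library. The difference was -1.57 ± 0.28 (SE, edgeR adjusted p = 0.0058), or -1.31 (edgeR adjusted p = 6.8e-11) without it. ALDH1L2 overlaps C12orf45, which held a mean of 449.9 counts beside 2801, and whether counting used strand is not given in the sources used here.
NR 5637 dishes had 0.647, 0.847 and 0.716 CPM on neratinib, against 0.424, 0.258 and 0.22 CPM in NR controls. Parental 5637 dishes had 0.513, 0.424 and 0.654 CPM on neratinib, against 0.448, 0.173 and 0.259 CPM in controls. The NR groups were apart and the parental groups overlapped, all at under 1 CPM. The rise in NR cells, 1.16 ± 0.35 (SE, edgeR adjusted p = 0.016), did not pass without NR control replicate 2 (adjusted p = 0.06), NR control replicate 3 (0.073) or NR neratinib replicate 2 (0.054). The change in parental cells, 0.75 ± 0.36 (SE, edgeR adjusted p = 0.1), did not pass, except without parental control replicate 1 (1.182, adjusted p = 0.028).

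The cytosolic enzymes fell on neratinib in parental cells. SHMT1 (ENSG00000176974.13, hg19 chr17:18231187-18266856) encodes the cytosolic hydroxymethyltransferase. In NR OVCAR8 cells there were 82.2, 80.5 and 78.9 CPM on neratinib, against 77.6, 78.6 and 81.5 CPM in NR controls. Parental OVCAR8 dishes had 65.7, 69.2 and 66.0 CPM on neratinib, against 91.7, 102 and 97.6 CPM in controls. NR groups overlapped, and treated parental dishes were below their controls. The log2 fold change was 0.01 ± 0.08 (SE, edgeR adjusted p = 0.99) in NR cells and -0.64 ± 0.08 (SE, edgeR adjusted p = 0.00013) in parental cells, and the difference was 0.65 ± 0.12 (SE, edgeR adjusted p = 0.0059).
In NR 5637 cells there were 57.9, 58.0 and 57.0 CPM on neratinib, against 48.5, 50.5 and 51.5 CPM in NR controls. In parental 5637 cells there were 43.6, 47.8 and 43.1 CPM on neratinib, against 49.2, 46.2 and 47.1 CPM in controls. The NR dishes were apart in CPM, which uses the library total, but their change of 0.07 ± 0.06 (SE, edgeR adjusted p = 0.37) with TMM scaling did not pass, and with the library total it was 0.20 (edgeR adjusted p = 0.012). The parental dishes overlapped, and the change of -0.19 ± 0.06 (SE, edgeR adjusted p = 0.02) was lost with the library total (-0.08, adjusted p = 0.25), without the filter (0.09), with all 24 libraries (0.078) and without parental control replicate 1 (0.09), parental neratinib replicate 1 (0.076) or parental neratinib replicate 3 (0.085). The NR minus parental difference in 5637, 0.27 ± 0.09 (SE, edgeR adjusted p = 0.059), did not pass, but did with DESeq2 (0.031), the library total (0.03) or a filter of 1 CPM in 3 libraries (0.046), and without parental neratinib replicate 2 (0.041) or NR neratinib replicate 3 (0.045). Scaling by the library total moved the median change over the genes tested to 0.12 in NR 5637, 0.13 in parental 5637 and 0.10 in parental OVCAR8, against 0.00, 0.02 and 0.01 with TMM scaling.
MTHFD1 (ENSG00000100714.11, hg19 chr14:64854749-64926722) encodes the cytosolic enzyme that puts formate on folate and feeds purine and thymidylate synthesis. NR OVCAR8 dishes had 320.0, 322 and 321 CPM on neratinib, against 333, 343 and 342 CPM in NR controls. In parental OVCAR8 cells there were 262, 265 and 272 CPM on neratinib, against 361, 309 and 366 CPM in controls. The lowest control was again the library that stood apart. The change was -0.10 ± 0.06 (SE, edgeR adjusted p = 0.53) in NR cells, or -0.11 (edgeR adjusted p = 0.022) without that library, and the change in parental cells was -0.47 ± 0.06 (SE, edgeR adjusted p = 0.00013). The difference was 0.37 ± 0.08 (SE, edgeR adjusted p = 0.018), a call lost without 6 of the other 11 libraries (parental neratinib replicates 1 and 2, NR control replicates 1 and 2, NR neratinib replicates 1 and 3, adjusted p of 0.053 to 0.069), with the library total (0.095) or without the filter (0.14), and held at 0.39 (edgeR adjusted p = 2e-06) without parental control replicate 2. MTHFD1 overlaps ZBTB25, with a mean of 900.2 counts beside 9388.
In 5637, MTHFD1 had 136, 146 and 133 CPM in NR dishes on neratinib, against 144, 143 and 147 CPM in NR controls. The parental 5637 dishes gave 132, 138 and 137 CPM on neratinib, against 199.8, 198 and 192 CPM in controls. NR groups overlapped, and all 3 parental controls were above every other 5637 dish. The change was -0.19 ± 0.05 (SE, edgeR adjusted p = 0.0086) in NR cells, lost without NR neratinib replicate 3 (adjusted p = 0.09), with the library total (0.28), without the filter (0.058) and with the compared groups alone (0.098), and -0.64 ± 0.05 (SE, edgeR adjusted p = 1e-07) in parental cells. The difference was 0.45 ± 0.07 (SE, edgeR adjusted p = 0.00076).

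The responses of NR and parental cells were compared by an interaction term, the NR effect minus the parental effect. In OVCAR8, this term was below 0 for 5 of the 10 genes (PSAT1, PSPH, SHMT2, MTHFD2 and ALDH1L2), whose rise was larger in parental cells. It was above 0 for 2, the cytosolic SHMT1 and MTHFD1, which fell in parental cells and changed less in NR cells. Of all genes, 4.62% were called higher and 4.21% lower (8.83% in all). Without parental control replicate 2, PHGDH and MTHFD1L joined the genes below 0 and MTHFD2L, at 0.52 (edgeR adjusted p = 0.016), those above 0. There 17.0% of genes higher and 15.7% lower (32.8% in all) were called. In 5637 the term was below 0 for PSPH, SHMT2 and MTHFD2, which rose less in NR cells. It was above 0 for PHGDH, which rose more in NR cells, and for MTHFD1, which fell less there (-0.19, against -0.64 in parental cells). Of all genes, 7.39% were called higher and 6.48% lower (13.9% in all). For PHGDH the NR response was larger than the parental one in 5637, by 0.41 ± 0.09, and in OVCAR8 it was smaller without parental control replicate 2, at -0.84. The difference between the lines in this interaction was not tested.

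**Figure D2:**
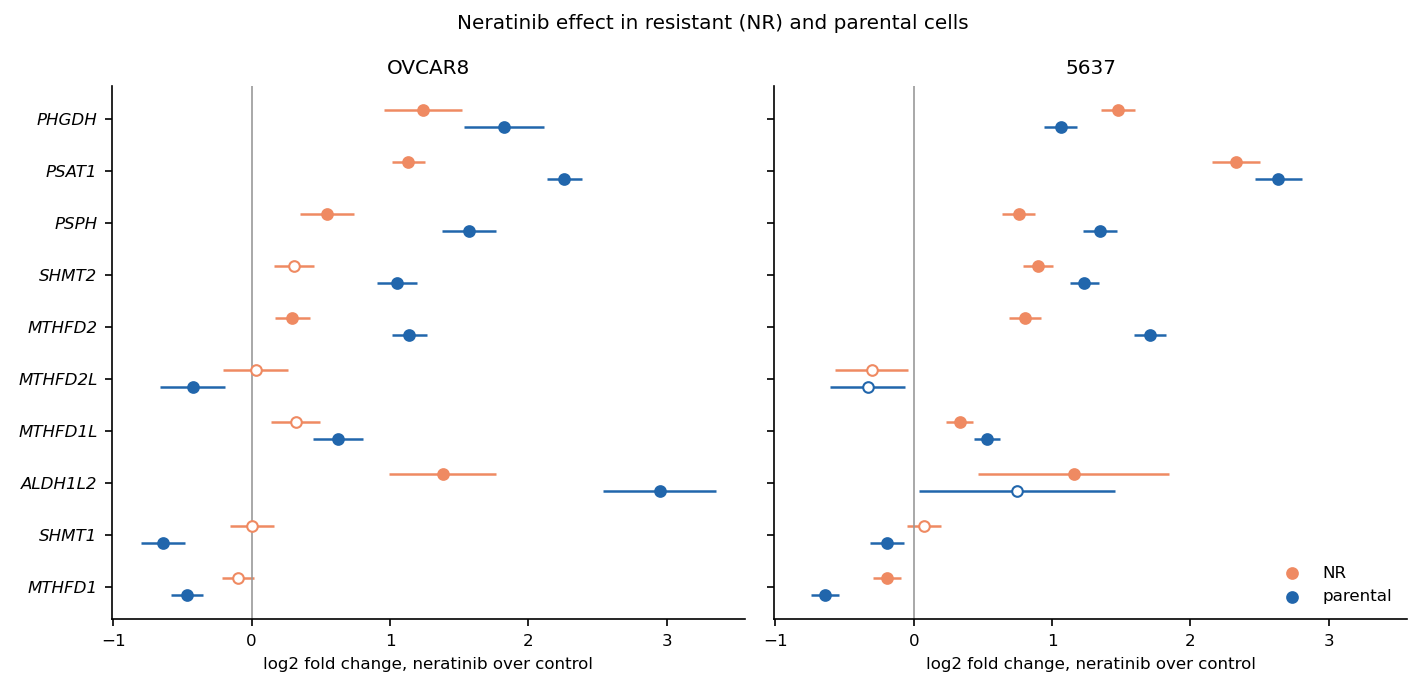
Log2 fold change, neratinib over control, of each enzyme in NR cells (orange, upper of each pair) and parental cells (blue, lower) of OVCAR8 (left) and 5637 (right). Bars are 95% intervals, filled points passed edgeR's test and open points did not; in OVCAR8 the points of PSAT1, PSPH, SHMT2, MTHFD2 and ALDH1L2 lie farther right in parental than in NR cells.

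NR and parental cells were then compared directly. Off the drug, 3 of the 10 genes were higher in NR than in parental 5637 cells and 3 were lower, where 28.4% of genes were called higher and 28.0% lower (56.5% in all). PHGDH was lower, at -1.01 ± 0.06 (SE, edgeR adjusted p = 1.3e-09), MTHFD1 at -0.46 ± 0.05 (SE, edgeR adjusted p = 2.2e-06) and SHMT2 at -0.26 ± 0.06 (SE, edgeR adjusted p = 0.00081). MTHFD2 was higher by 0.62 ± 0.06 (SE, edgeR adjusted p = 2.5e-07) and PSPH by 0.42 ± 0.06 (SE, edgeR adjusted p = 3.1e-05). MTHFD2L was higher by 0.37 ± 0.14 (SE, edgeR adjusted p = 0.029), which did not pass without parental control replicate 2 or 3 or NR control replicate 1 or 2 (adjusted p of 0.066 to 0.12). In OVCAR8 off the drug, SHMT1 alone was called, lower in NR cells, at -0.35 ± 0.08 (SE, edgeR adjusted p = 0.019), where 4.94% of genes were called higher and 4.91% lower (9.84% in all). That call was lost without any 1 NR control (adjusted p of 0.053 to 0.077) and with the compared groups alone (0.21). Without parental control replicate 2, SHMT1 (-0.26) and PHGDH (-0.14) were lower and ALDH1L2 (0.19) and MTHFD1L (0.12) were higher, where 11.4% of genes higher and 11.4% lower (22.8% in all) were called. With all libraries PHGDH differed by -0.38 ± 0.14 (SE, edgeR adjusted p = 0.11) and ALDH1L2 by 0.46 ± 0.20 (SE, edgeR adjusted p = 0.16). PHGDH was also called without parental control replicate 1 (-0.51, edgeR adjusted p = 0.031), without the filter (0.047) and with all 24 libraries (0.026).
On the drug, all 3 serine synthesis genes and SHMT2, MTHFD2 and MTHFD1L were lower in NR than in parental cells of both lines. In OVCAR8, 7 of 10 were lower and 3 higher, with and without the library that stood apart, where 14.6% of genes were called higher and 16.4% lower (31.0% in all), and without it 26.8% of genes higher and 28.7% lower (55.5% in all). PSAT1 differed by -1.14 ± 0.06 (SE, edgeR adjusted p = 2e-07), ALDH1L2 by -1.11 ± 0.20 (SE, edgeR adjusted p = 0.0012), PSPH by -0.999 ± 0.10 (SE, edgeR adjusted p = 1.8e-05) and PHGDH by -0.97 ± 0.14 (SE, edgeR adjusted p = 0.00035). SHMT2, MTHFD2 and MTHFD1L were lower, at -0.87 ± 0.07, -0.73 ± 0.07 and -0.31 ± 0.09, while MTHFD2L, MTHFD1 and SHMT1 were higher by 0.37 ± 0.12, 0.30 ± 0.06 and 0.30 ± 0.08. The calls of MTHFD1L and MTHFD2L were lost without any 1 of the 6 treated libraries, that of MTHFD2L also without NR control replicate 1, with the library total (adjusted p = 0.077) and without the filter (0.11), and that of SHMT1 without parental neratinib replicate 1 or 3, NR neratinib replicate 1 or the filter (0.053). In 5637, 6 of 10 were lower and 2 higher, where 28.8% of genes were called higher and 29.2% lower (58.0% in all). SHMT2 differed by -0.59 ± 0.05 (SE, edgeR adjusted p = 1.5e-07), PHGDH by -0.59 ± 0.06 (SE, edgeR adjusted p = 5.2e-07) and PSAT1 by -0.44 ± 0.08 (SE, edgeR adjusted p = 0.00024). MTHFD2, PSPH and MTHFD1L were lower, at -0.28 ± 0.06, -0.17 ± 0.06 and -0.16 ± 0.05, and MTHFD2L and SHMT1 were higher by 0.40 ± 0.14 and 0.33 ± 0.06. The call of PSPH was lost without any 1 parental neratinib library or NR neratinib replicate 1 or 3, and with the library total, no filter, the compared groups alone or all 24 libraries (adjusted p of 0.094 to 0.14). That of MTHFD1L was lost without the filter (0.086), with the compared groups alone (0.057) or with all 24 libraries (0.087), and that of MTHFD2L without parental neratinib replicate 1 or 2 or NR neratinib replicate 2. These comparisons share their libraries with the drug comparisons above.

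The lines differed in these enzymes without the drug. In parental controls, 7 of the 10 genes were higher in OVCAR8 than in 5637 and 3 were lower, where 36.8% of genes were called higher and 35.1% lower (72.0% in all). ALDH1L2 was higher by 6.96 ± 0.27 (SE, edgeR adjusted p = 9.5e-17), PSAT1 by 1.75 ± 0.08 (SE, edgeR adjusted p = 1.7e-15) and SHMT1 by 1.03 ± 0.07 (SE, edgeR adjusted p = 1.2e-11). PSPH was lower, at -0.92 ± 0.09 (SE, edgeR adjusted p = 9.3e-10) and PHGDH at -0.41 ± 0.11 (SE, edgeR adjusted p = 0.0025). Without OVCAR8 parental control replicate 2 PHGDH was at -0.65 (edgeR adjusted p = 3.1e-10), and with the compared groups alone its call was lost (0.081). The weakest of these calls was that of MTHFD1L, -0.17 ± 0.07 (SE, edgeR adjusted p = 0.042), which was lost without any 1 of 17 libraries, untreated ones of both lines included (adjusted p of 0.055 to 0.36), with DESeq2 or its size factors (0.057 and 0.079), and without the filter or with the compared groups alone (0.25 each). Without OVCAR8 parental control replicate 2 it was -0.29 (edgeR adjusted p = 2.9e-06). MTHFD2L, 0.40 ± 0.13 (SE, edgeR adjusted p = 0.0087), was lost without 5637 parental control replicate 2 (adjusted p = 0.071) and with the compared groups alone (0.063).
The neratinib effect itself also differed between lines. In parental cells it was larger in OVCAR8 than in 5637 for ALDH1L2, by 2.18 ± 0.51 (SE, edgeR adjusted p = 0.0062), and for PHGDH, by 0.75 ± 0.16 (SE, edgeR adjusted p = 0.0027), where 5.46% of genes were called higher and 4.83% lower (10.3% in all). It was smaller in OVCAR8 for MTHFD2, at -0.58 ± 0.09 (SE, edgeR adjusted p = 0.00012), and lower for SHMT1, at -0.46 ± 0.10 (SE, edgeR adjusted p = 0.0054), and PSAT1, at -0.39 ± 0.11 (SE, edgeR adjusted p = 0.023). The ALDH1L2 call rests on the 7 to 28 counts of the parental 5637 libraries and was lost without 5637 parental control replicate 1 (1.79, edgeR adjusted p = 0.085). That of PSAT1 was lost without 11 of the 24 libraries, with the library total (0.051) and without the filter (0.096). In NR cells the effect was smaller in OVCAR8 for PSAT1, at -1.21 ± 0.11 (SE, edgeR adjusted p = 4.5e-08), SHMT2, at -0.60 ± 0.09 (SE, edgeR adjusted p = 0.00011), and MTHFD2, at -0.52 ± 0.09 (SE, edgeR adjusted p = 0.00037), where 5.04% of genes were called higher and 4.78% lower (9.82% in all). The untreated NR to parental difference was higher in OVCAR8 for PHGDH, by 0.61 ± 0.16 (SE, edgeR adjusted p = 0.0044), and MTHFD1, by 0.37 ± 0.08 (SE, edgeR adjusted p = 0.0011), and lower for MTHFD2, at -0.53 ± 0.09 (SE, edgeR adjusted p = 7e-05), SHMT1, at -0.43 ± 0.10 (SE, edgeR adjusted p = 0.0028), and PSPH, at -0.41 ± 0.12 (SE, edgeR adjusted p = 0.01), where 14.8% of genes were called higher and 18.1% lower (32.9% in all). The PSPH call was lost without OVCAR8 NR control replicate 3 (-0.30, adjusted p = 0.062) and without the filter (0.082). MTHFD2L, -0.47 ± 0.18 (SE, edgeR adjusted p = 0.052), did not pass, but did with DESeq2 or its size factors (0.037 and 0.047) and without any 1 of 5 libraries of 5637 (0.039 to 0.046). Without OVCAR8 parental control replicate 2, 3 genes differed upward and 3 downward for the drug in parental cells, 0 and 4 for the drug in NR cells and 3 and 4 for untreated resistance, where 9.69% of genes higher and 8.90% lower (18.6% in all), 11.2% of genes higher and 8.72% lower (19.9% in all) and 18.6% of genes higher and 20.5% lower (39.1% in all) were called. The genes that joined were MTHFD1L for the drug in parental cells, at 0.21 (edgeR adjusted p = 0.015), and PHGDH for the drug in NR cells, at -0.25 (0.019). For untreated resistance they were SHMT2, at 0.19 (edgeR adjusted p = 0.02), and MTHFD2L, at -0.55 (0.017). Doses differed between the lines, so these values set 1 µM beside 600 nM.

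Levels scaled for transcript length (TPM) were set against each other for pairs of related enzymes, and the mitochondrial hydroxymethyltransferase gained on the cytosolic one on neratinib. The ratio of SHMT2 to SHMT1 was 6.62 to 7.05 in NR OVCAR8 dishes on neratinib, against 5.31 to 5.64 in NR controls. The parental OVCAR8 dishes gave ratios of 14.8 to 15.5 on neratinib, against 4.62 to 4.89 in controls. In 5637 the ratio was 6.60 to 7.68 in NR dishes on neratinib, against 3.97 to 4.18 in NR controls, and 13.0 to 14.1 in parental dishes on neratinib, against 4.89 to 5.21 in parental controls. Neratinib dishes exceeded their controls in all 4 pairs and no ranges overlapped.
MTHFD2 exceeded its isozyme MTHFD2L throughout, by 28.4-fold or more. Their ratio was 56.4 to 60.5 in NR OVCAR8 dishes on neratinib, against 44.7 to 54.4 in NR controls, and 121 to 131 in parental dishes on neratinib, against 38.0 to 45.5 in parental controls. In 5637 it was 73.4 to 88.0 in NR dishes on neratinib, against 36.3 to 38.5 in NR controls, and 117 to 139 in parental dishes on neratinib, against 28.4 to 36.1 in parental controls. MTHFD1L relative to MTHFD1, the enzymes that release and take up formate, stood at 0.338 to 0.341 in NR OVCAR8 dishes on neratinib, against 0.252 to 0.256 in NR controls. Ratios in parental OVCAR8 dishes were 0.509 to 0.525 on neratinib, against 0.215 to 0.296 in controls, the highest control being the library that stood apart. In 5637 the ratio was 0.930 to 1.02 in NR dishes on neratinib, against 0.652 to 0.707 in NR controls, and 1.06 to 1.10 in parental dishes on neratinib, against 0.473 to 0.483 in parental controls. Ratios are descriptions of the same counts and carry no test of their own.

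**Figure D3:**
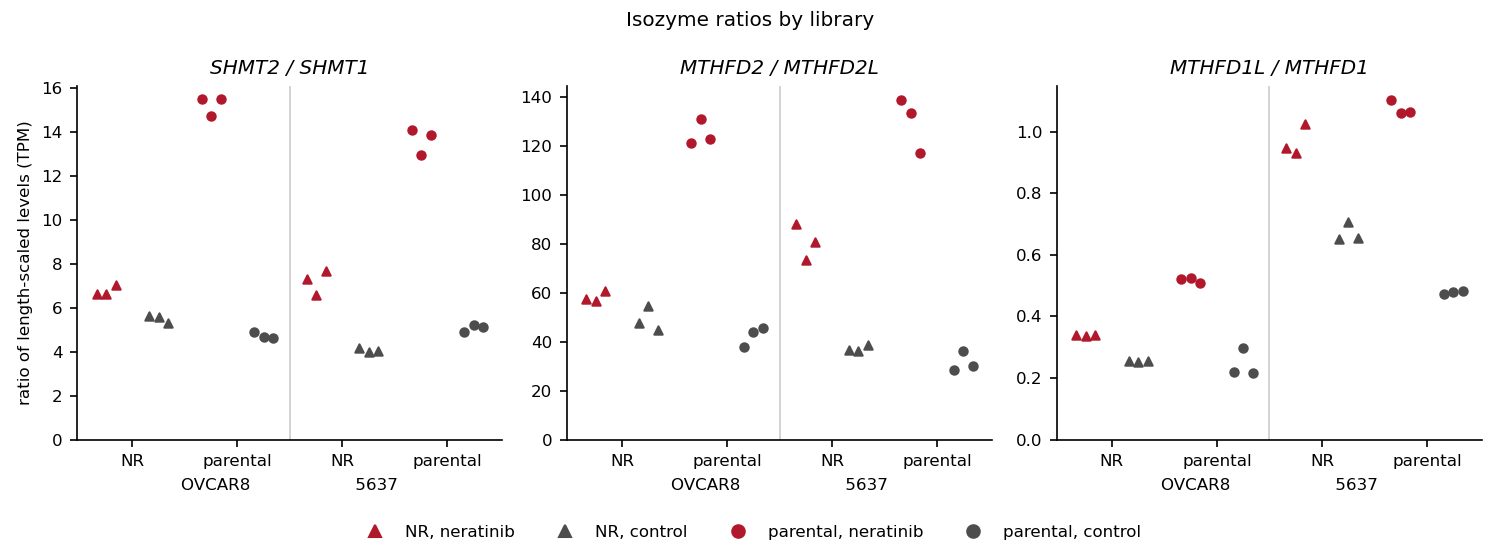
Ratio of length-scaled levels (TPM, axes from 0) of mitochondrial to cytosolic hydroxymethyltransferase (SHMT2/SHMT1), of the mitochondrial dehydrogenase isozymes (MTHFD2/MTHFD2L) and of the formate-handling enzymes (MTHFD1L/MTHFD1), 1 point per library, NR (triangles) left of parental (circles), neratinib (red) left of control (grey). SHMT2/SHMT1 reaches 14.8 to 15.5 in treated parental OVCAR8 dishes and 4.62 to 4.89 in their controls.

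The order of the 8 groups differed between the enzymes. PHGDH, PSAT1, SHMT2, MTHFD2 and ALDH1L2 were highest in parental OVCAR8 cells on neratinib (means of 950.3, 535, 708, 263 and 304 CPM), and their range there overlapped that of no other group. PSPH and MTHFD1L were highest in parental 5637 cells on neratinib (67.5 and 122 CPM). PHGDH followed in parental 5637 on neratinib (745 CPM), NR 5637 on neratinib (506 CPM) and NR OVCAR8 on neratinib (474 CPM), of which the last 2 overlapped, then the controls of parental 5637 (331 CPM), parental OVCAR8 (248 CPM), NR OVCAR8 (199 CPM) and NR 5637 (167 CPM). SHMT1 and MTHFD1 were highest in parental OVCAR8 controls (97.2 and 345 CPM), where MTHFD1 overlapped with the NR controls, and lowest in parental 5637 on neratinib (44.8 and 136 CPM). These lowest groups overlapped with the next group in the order, and so did the neighbours of MTHFD2L at every step. Per transcript length, PSAT1 was the most abundant of the 10 in parental OVCAR8 cells on neratinib (761 TPM, with PHGDH at 526 TPM and SHMT2 at 455 TPM), and SHMT2 was the most abundant in parental OVCAR8 controls (193 TPM), just above MTHFD1 (172 TPM). In parental 5637 controls PHGDH led (176 TPM), above SHMT2 (103 TPM) and MTHFD1 (99.1 TPM).

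Genes that followed a member most closely were taken among 9421 genes with a mean of at least 10 CPM, by Pearson's r over the 8 group means. The groups fall into 2 lines and 2 treatments and differ in depth, so that r describes a pattern and no more. SHMT2 was followed by PCK2 (r = 0.992), the mitochondrial phosphoenolpyruvate carboxykinase, by SARS (0.986), the seryl-tRNA synthetase, and by ZFP90 (0.976). MTHFD2 was followed by LRTOMT (0.990), ZNF329 (0.972) and GPT2 (0.969), the mitochondrial alanine aminotransferase. PSAT1 was closest to BPHL (0.978), ULBP1 (0.975) and JAK1 (0.973), and PHGDH to TMEM127 (0.970), LMO4 (0.963) and FRG1B (0.960). For ALDH1L2 (ZFHX4 0.997, XYLB 0.997, NSUN4 0.996) and MTHFD1 (ANAPC7 0.996, CDC5L 0.992, CISD1 0.992) the values were as close.

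The enzymes around this cycle were described by lists chosen by function, with earlier results of these data known. Beside the counts that follow, the share of all genes called was 1.39% in NR OVCAR8 (21.3% without the library that stood apart), 32.5% in parental OVCAR8 (49.2% without it), 39.5% in NR 5637 and 47.3% in parental 5637. Glycolytic genes act before and after the intermediate from which serine is drawn, and were called lower or not called. Of 13 tested, 4 fell in NR OVCAR8 (11 without the library that stood apart), 10 in parental OVCAR8, 11 in NR 5637 and 12 in parental 5637, and 0 rose in any of the 4 comparisons. In NR OVCAR8 1 fell without any 1 of the NR or the parental neratinib libraries. In 5637 1 rose in parental cells without parental control, parental neratinib or NR control replicate 3, with the library total, with the compared groups alone or with either other filter, and 1 in NR cells without NR control replicate 3. Their medians were -0.27, -0.36, -0.67 and -0.51, where those of all genes were 0.00, 0.01, 0.00 and 0.02. LDHA, lactate dehydrogenase, which acts below that branch point, changed by -0.95 ± 0.08 (log2, SE) in parental OVCAR8, -1.29 ± 0.06 in NR 5637 and -1.36 ± 0.06 in parental 5637, and HK2, a hexokinase at the head of the pathway, changed by -0.91 ± 0.13 in NR OVCAR8. Purine synthesis, which spends formyl-folate, had 13 genes tested. In NR OVCAR8 0 of them were called (2 lower and 1 higher without the library that stood apart), in parental OVCAR8 9 fell and 1 rose, in NR 5637 10 fell and 1 rose, and in parental 5637 11 fell and 1 rose. The riser in parental OVCAR8, ADSSL1, an adenylosuccinate synthase, changed by 0.36 ± 0.12 (edgeR adjusted p = 0.038), a call lost in 10 of 21 alternatives, among them leaving out parental control replicate 1 or 3, parental neratinib replicate 1 or 3 or any 1 NR neratinib library (0.052 to 0.14). Without parental control replicate 2, 2 purine genes rose there. In parental OVCAR8 5 fell with the library total and 4 with the compared groups alone. PPAT, the first enzyme of that pathway, changed by -0.54 ± 0.09 in parental OVCAR8 and -0.61 ± 0.08 in NR 5637, and PFAS changed by -0.89 ± 0.07 in parental 5637.
Genes that import or spend serine included risers in all 4 comparisons. The share of all genes called higher was 0.642% in NR OVCAR8, 16.2% in parental OVCAR8, 18.4% in NR 5637 and 23.9% in parental 5637. Without the library that stood apart it was 9.39% in NR and 24.3% in parental OVCAR8. Of 16 tested, 2 rose in NR OVCAR8 (10 rose and 1 fell without the library that stood apart), 7 rose and 0 fell in parental OVCAR8 (8 and 2 without it), 7 rose and 2 fell in NR 5637, and 8 rose and 2 fell in parental 5637. In NR OVCAR8 1 rose without any 1 of the NR or the parental neratinib libraries, in NR 5637 11 rose without NR neratinib replicate 1, and in parental 5637 1 fell without parental control replicate 1 or 2 or parental neratinib replicate 2. SLC1A4, a carrier of serine and other small neutral amino acids, rose by 0.92 ± 0.08 (edgeR adjusted p = 0.00024) in NR OVCAR8 and 2.48 ± 0.08 (9.5e-09) in parental OVCAR8. In 5637 it rose by 1.22 ± 0.06 (edgeR adjusted p = 2.7e-10) in NR cells and 2.12 ± 0.06 (6.8e-13) in parental cells. CBS, which joins serine to homocysteine, rose by 3.31 ± 0.09 in NR 5637 and 3.79 ± 0.09 in parental 5637. PTDSS1, which puts serine into phospholipid, changed by -0.50 ± 0.05 in NR 5637 and -0.45 ± 0.05 in parental 5637.
Other genes of the folate cycle and of folate transport gave 0 calls of 19 in NR OVCAR8 (4 higher and 4 lower without the library that stood apart) and 5 risers and 8 fallers of 19 in parental OVCAR8. In 5637, 18 were tested, of which 3 rose and 5 fell in NR cells and 3 rose and 13 fell in parental cells. In NR 5637 the fallers were 3 without any 1 parental control, parental neratinib replicate 1 or 2, NR control replicate 2 or NR neratinib replicate 3, and in 4 other alternatives. SLC19A1, the reduced folate carrier, changed by -0.60 ± 0.12 in NR 5637 and -1.005 ± 0.12 in parental 5637, and TYMS, thymidylate synthase, changed by -0.74 ± 0.10 in parental OVCAR8. The 4 genes of glycine cleavage gave 0 calls in NR OVCAR8, 1 riser and 3 fallers in parental OVCAR8 (1 and 2 without the library that stood apart), and 1 and 1 in NR and in parental 5637. With 1 library left out the fallers were 1 to 3 in parental OVCAR8, 0 to 2 in NR 5637 and 1 to 2 in parental 5637. Methionine-cycle genes gave 0 calls of 10 in NR OVCAR8, 1 riser and 1 faller of 10 in parental OVCAR8 (3 and 1 without that library), 3 and 2 of 8 in NR 5637, and 2 and 3 of 8 in parental 5637. In parental OVCAR8 the fallers were 0 without parental neratinib replicate 2 and 2 without parental control replicate 1. Of these counts, the 8 of 18 folate genes in NR 5637, the 2 of 4 glycine cleavage genes in both kinds of 5637 cells and those of the methionine cycle lay too near the share of all genes, or rest on too few genes, to be read as changes of the list.

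**Figure D4:**
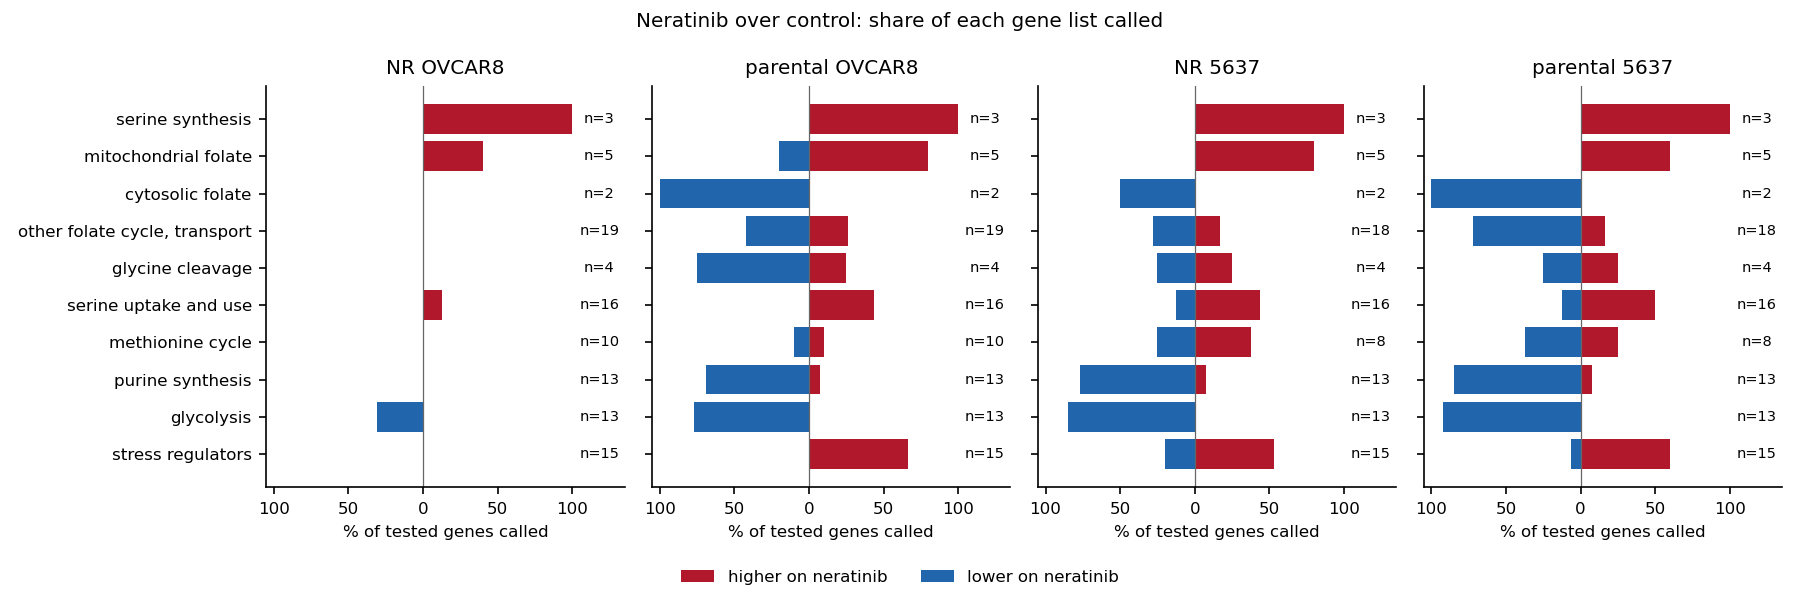
Share of each list's tested genes (number at right) called higher (red, to the right) or lower (blue, to the left) on neratinib in NR OVCAR8, parental OVCAR8, NR 5637 and parental 5637 cells. All 3 serine synthesis genes were called higher in all 4, though the PSPH call in NR OVCAR8 (edgeR adjusted p = 0.022) was lost without any 1 NR library. Glycolysis and purine synthesis were called lower or not at all, apart from 1 purine gene that was higher in each but NR OVCAR8. In parental OVCAR8 this was ADSSL1 (edgeR adjusted p = 0.038), whose call was lost in 10 of 21 alternatives. The share of all genes called was 1.39% in NR OVCAR8, 32.5% in parental OVCAR8, 39.5% in NR 5637 and 47.3% in parental 5637.

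A list of 15 transcription factors and stress-response genes, ATF4 among them, is given beside the enzymes. In NR OVCAR8 0 of 15 were called (10 higher and 1 lower without the library that stood apart), and in parental OVCAR8 10 rose and 0 fell (12 and 1 without it). In NR 5637 8 rose and 3 fell, and in parental 5637 9 rose and 1 fell. The share of all genes called was 1.39% in NR OVCAR8 (21.3% without that library), 32.5% in parental OVCAR8 (49.2%), 39.5% in NR 5637 and 47.3% in parental 5637. With the compared groups alone 6 rose in parental OVCAR8. ATF4 averaged 574 ± 4.07 CPM (SD, n = 3) in NR OVCAR8 cells on neratinib, against 379 ± 1.44 CPM in NR controls, and 868 ± 4.66 CPM in parental cells on neratinib, against 517 ± 132 CPM in parental controls. In 5637 it averaged 639 ± 8.38 CPM in NR cells on neratinib, against 291 ± 12.4 CPM in NR controls, and 722 ± 4.43 CPM in parental cells on neratinib, against 327 ± 5.14 CPM in parental controls. ATF4 mRNA rose by 1.01 ± 0.05 (SE, edgeR adjusted p = 5.3e-10) in NR 5637 and 1.04 ± 0.05 (SE, edgeR adjusted p = 3.1e-10) in parental 5637, and the difference was -0.03 ± 0.07 (SE, edgeR adjusted p = 0.84). In OVCAR8 its change was 0.58 ± 0.16 (SE, edgeR adjusted p = 0.1) in NR cells, or 0.57 (edgeR adjusted p = 1.5e-10) without parental control replicate 2, and 0.63 ± 0.16 (SE, edgeR adjusted p = 0.011) in parental cells, lost with the compared groups alone (0.085), with a difference of -0.05 ± 0.23 (SE, edgeR adjusted p = 0.92), or -0.35 (edgeR adjusted p = 1.9e-05) without parental control replicate 2.
DDIT3, a stress-induced factor downstream of ATF4, had a smaller response in NR cells of both lines. It averaged 11.9 ± 0.448 CPM in NR OVCAR8 cells on neratinib, against 7.84 ± 0.442 CPM in NR controls, and 47.5 ± 0.326 CPM in parental cells on neratinib, against 10.3 ± 4.20 CPM in parental controls. In 5637 it averaged 22.4 ± 0.656 CPM in NR cells on neratinib, against 8.68 ± 0.141 CPM in NR controls, and 34.6 ± 2.06 CPM in parental cells on neratinib, against 5.46 ± 0.225 CPM in parental controls. The NR minus parental difference in response was -1.51 ± 0.33 (SE, edgeR adjusted p = 0.015) in OVCAR8, or -1.959 (edgeR adjusted p = 6.2e-11) without parental control replicate 2, and -1.31 ± 0.11 (SE, edgeR adjusted p = 1.3e-06) in 5637. Whether these regulators account for the enzymes' changes was not tested.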

How the data were processed

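Whole-number read counts per gene were deposited by the authors as 1 table of 24 libraries, with gene symbols, Ensembl IDs and hg19 coordinates. The submitters' processing notes name FastQC, STAR 2.5.3a, featureCounts 1.15.2, DESeq2 1.18.1 and hg19, without roles, and per the labels' protocols libraries were stranded poly(A) libraries. Whether counting used strand is not given in the sources used here, so reads of overlapping genes cannot be told apart.

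Columns were matched to samples by name. CPM divides a count by the library total, and TPM also by the deposited gene length. Tests used edgeR 4.0.16 (TMM scaling, filterByExpr, quasi-likelihood F-test) in R 4.3.3, with 1 fit per line (12 libraries, 4 group means) and 1 over 24 libraries for differences between lines, and Benjamini-Hochberg adjustment across every gene in the fit. Counting error and dish-to-dish spread are both in the SE. Scripts were tested on simulated counts. Alternatives were DESeq2 1.42.0, limma 3.58.1 (voom), DESeq2 size factors, library size alone, filters on low counts, fits of the compared groups alone or of all 24 libraries, a replicate block and leaving out each library.

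The 10 enzymes, the lists and the tests were chosen with earlier results of these data known. Named genes outside the 10 are ATF4 and DDIT3, up to 2 called genes per list and direction with the largest change and a mean of at least 5 CPM, and the 3 genes most like each of 6 members. A gene that this rule names is not reported here.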

Additional observations from a re-analysis of the deposited data

Results flagged for a closer look

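Results are listed here because the same contrast differed between 2 kinds of cells or 2 lines by a test of the difference itself (edgeR interaction term, adjusted p under 0.05 over all genes). Values are log2 differences of fold changes.

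The neratinib response of NR cells minus that of parental cells was below 0 in OVCAR8 for PSAT1 (-1.13), PSPH (-1.03), SHMT2 (-0.75), MTHFD2 (-0.85), ALDH1L2 (-1.57) and DDIT3 (-1.51), and above 0 for SHMT1 (0.65) and MTHFD1 (0.37). In 5637 it was below 0 for PSPH (-0.58), SHMT2 (-0.34), MTHFD2 (-0.90) and DDIT3 (-1.31), and above 0 for PHGDH (0.41) and MTHFD1 (0.45).

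The neratinib response of OVCAR8 minus that of 5637, at unequal doses, differed in parental cells for ALDH1L2 (2.18), PHGDH (0.75), MTHFD2 (-0.58), SHMT1 (-0.46) and PSAT1 (-0.39). In NR cells it differed for PSAT1 (-1.21), SHMT2 (-0.60) and MTHFD2 (-0.52). The untreated NR to parental difference of OVCAR8 minus that of 5637 was above 0 for PHGDH (0.61) and MTHFD1 (0.37), and below 0 for DDIT3 (-1.12), MTHFD2 (-0.53), SHMT1 (-0.43) and PSPH (-0.41). Without OVCAR8 parental control replicate 2 that of DDIT3 was -0.69.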

How the results depend on the processing

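Of the values of the 10 genes under other scalings, filters, tools and fits, 1088 kept their direction and side of the threshold, 36 lost the call, 24 gained one and 17 turned sign. With 1 library left out these numbers were 2010, 95, 25 and 30. The cause was not tested unless named.

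Members called lower in parental 5637 on neratinib were 1 (2 as reported) with library size alone, without a filter or with all 24 libraries, and 0 (1) in NR 5637 with library size alone, without a filter or with the compared groups alone. In the NR minus parental response of 5637, all 24 libraries together called 1459 genes (2539) and 1 member higher (2). For neratinib in NR OVCAR8, where 251 genes were called, DESeq2 called 800, all 24 libraries 488, the compared groups alone, which leave out the library that stood apart, 3641 with 1 member lower, and the replicate block 98 with 3 members higher (5). Parental OVCAR8 on neratinib had 2865 genes (5868) with the compared groups alone. Untreated NR against parental OVCAR8 (1779 genes, 1 member lower) had 490 and 0 with the compared groups alone, 2884 and 2 with all 24 libraries, and 2 members lower without a filter. On the drug, 10401 genes (5596) were called with the compared groups alone, and 1 member was higher (3) without a filter. The NR minus parental response of OVCAR8 (1595 genes, 2 members higher) had 2520 with DESeq2 and 2436 with all 24 libraries, and 1 member higher with library size alone or without a filter. In parental controls 1 member (3) was lower in OVCAR8 with the compared groups alone. Deviations of same-numbered libraries correlated at -0.126 to 0.099 in 5637 and -0.092 to 0.086 in OVCAR8. Differently numbered libraries were not correlated, so whether replicate numbers pair dishes cannot be told from these values. The replicate block moved no other count by over 1.5 times.

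Under these settings signs turned for changes of 0.084 or less in size as reported. MTHFD1 on the drug in 5637 became 0.004 (DESeq2 or its size factors), 0.026 (library size), 0.001 (no filter), 0.009 (compared groups alone) and 0.002 (all libraries). SHMT1 in NR OVCAR8 became -0.004 (1 CPM in 3 libraries) and -0.002 (compared groups alone). MTHFD1L in untreated OVCAR8 became 0.01 (voom), 0.051 (library size), 0.004 (no filter or replicate block) and 0.002 (1 CPM in 3 libraries or all libraries). With library size alone PSAT1 there became 0.026, and the line differences of MTHFD1 (drug in NR) and MTHFD1L (untreated resistance) -0.013 and 0.

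Leaving out 1 library gave 4207 to 9117 genes for neratinib in parental OVCAR8, and for NR OVCAR8 43 to 3950 genes, 3 to 7 members higher and 0 to 1 lower. Untreated NR against parental OVCAR8 had 993 to 4225 genes, 0 to 2 members higher and 0 to 2 lower, and on the drug 3933 to 10286 genes and 1 to 3 members higher. The response difference of OVCAR8 had 790 to 6076 genes and 1 to 3 members higher. In each, the highest gene count came without parental control replicate 2. Members lower were 1 to 3 in parental and 0 to 2 in NR 5637 on neratinib, and members higher 1 to 2 on the drug in 5637. Line differences of the drug effect had 1550 to 3869 genes and 1 to 3 members higher in parental cells and 1486 to 4141 genes in NR cells. Ranges that crossed 0 were those of ALDH1L2 (-0.298 to 0.454, untreated 5637; -0.024 to 0.731, response difference in 5637, reported as 0.41; -0.107 to 0.398, line difference of the drug in NR, reported as 0.21), MTHFD1 (-0.042 to 0.053, on the drug in 5637), ATF4 (-0.055 to 0.019 and -0.351 to 0.104, response differences in 5637 and OVCAR8), SHMT1 (-0.012 to 0.028, NR OVCAR8), MTHFD2L (-0.058 to 0.151, response difference in 5637; -0.047 to 0.105, NR OVCAR8; -0.165 to 0.021, untreated OVCAR8; -0.178 to 0.012, line difference of the drug in parental cells), PSAT1, PSPH and MTHFD1L in untreated OVCAR8 (-0.049 to 0.003, -0.056 to 0.11 and -0.068 to 0.125), and MTHFD1L between lines (-0.048 to 0.007 for the drug in NR and -0.119 to 0.07 for untreated resistance).

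With library size alone the share of called genes that were higher was 67.4% in NR 5637 on neratinib (46.6% with TMM), 64.2% in parental 5637 (50.4%), 62.6% in parental OVCAR8 (49.8%), 40.5% in the response difference of OVCAR8 (52.4%) and 32.4% in the line difference of the drug in NR cells (51.3%). Counts were lowest for ALDH1L2 in 5637 (7 to 31 per library), whose calls there changed with single libraries.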

Other observations

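Off the drug, the genes around the cycle were also compared between NR and parental cells. Of 13 glycolytic genes, 5 were higher and 0 lower in NR than in parental OVCAR8 cells (11 and 0 without parental control replicate 2, 3 and 0 without any 1 NR control, 1 and 0 with the compared groups alone), where 4.94% of genes were called higher and 4.91% lower (9.84% in all), and without parental control replicate 2 11.4% of genes higher and 11.4% lower (22.8% in all). In 5637 7 were higher and 3 lower, where 28.4% of genes were called higher and 28.0% lower (56.5% in all). The median log2 differences of the 13 were 0.18 in OVCAR8 and 0.26 in 5637, where all genes had -0.01 and 0.00. The hexokinases HK2 and HK1 were higher by 1.17 ± 0.13 and 0.45 ± 0.07 (log2, SE) in OVCAR8. These comparisons share libraries with those of the drug and are given as counts.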
